A study of Mus musculus with 34 samples.

Results

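The Dlk1-Dio3 domain is a cluster of imprinted genes on distal mouse chromosome 12, and its genes were followed here through lines of epiblast stem cells (EpiSC) and the definitive endoderm (DE) made from them. The members were chosen by name: Meg3, Rian, Mirg, Dlk1, Rtl1 and Dio3. Of these 6 genes, 5 had a row among the 53655 genes counted, and Rtl1 is not analysed here because no row carried its symbol or a RefSeq synonym. EpiSC are the primed pluripotent state, and the lines had been converted from embryonic stem cells of inbred strains. RNA was sequenced from 17 EpiSC and 17 DE libraries, each from a separate cell line of its strain, and 16 lines gave both. Both cell types had 5 lines of C57BL/6J, 1 line of DBA/2J, and 2 lines of each of the strains WSB/EiJ, NZO/HiLtJ and NOD/ShiLtJ. PWK/PhJ gave 3 EpiSC and 4 DE libraries, and CAST/EiJ gave 2 EpiSC libraries and 1 DE library. No allele or transgene is named for any line. EpiSC grew on irradiated mouse embryonic fibroblasts in N2B27 with FGF at 12.5 ng/mL, activin A at 20 ng/mL and the tankyrase inhibitor NVP-TNKS656 at 175 nM, so fibroblast RNA may be present. DE took 40 h: the first 16 h in 3 uM CHIR plus 40 ng/mL activin, the next 24 h in 100 ng/mL activin plus 100 nM LDN-193189, after which CXCR4+ cells were isolated magnetically.

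Imprinted genes are expressed from the copy inherited from only the mother or only the father. In this domain the protein-coding genes Dlk1, Rtl1 and Dio3 are known to be expressed from the paternal copy, and the noncoding RNAs Meg3, Rian and Mirg, with the microRNAs and small nucleolar RNAs processed from them, from the maternal copy. A control region between Dlk1 and Meg3 that is methylated on the paternal copy sets this pattern, and Meg3 and Rian are known to fall silent in some mouse pluripotent lines made by reprogramming. Read counts per gene do not separate the copies, so each level below sums over both. Levels are given as CPM, counts scaled so that each library sums to 1 M (mega), and differences as log2 folds with their standard errors.

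**Figure D1:**
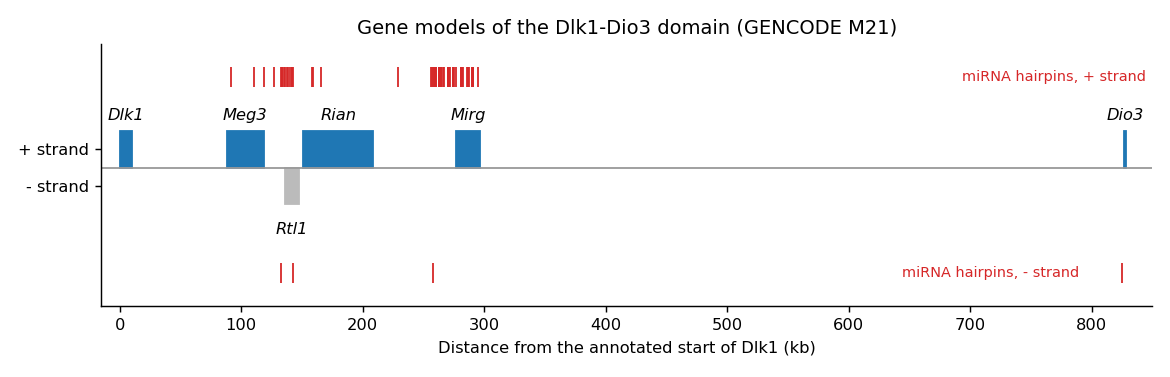
The map shows the GENCODE M21 gene models of the 6 genes and the miRNA genes by distance from the start of Dlk1 in kb, with the + strand above and the - strand below the line. Blue genes had a row in the count tables, and grey Rtl1 had none. Meg3, Rian and Mirg lie one after the other on the + strand, and Dio3 stands at the far end of the 828 kb.

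The domain runs from the start of Dlk1 to the end of Dio3 over 828 kb (GRCm38, chromosome 12, 109452823 to 110281097; GENCODE M21). Dlk1, a transmembrane ligand-like protein of the Notch family, covers 109452823 to 109463336. Meg3, a nuclear long noncoding RNA, covers 109541001 to 109571726, Rian, which hosts small nucleolar RNAs, 109603940 to 109661716, and Mirg, which hosts microRNAs, 109729764 to 109749460. Dio3, the deiodinase that inactivates thyroid hormone, covers 110279068 to 110281097. These 5 genes are on the + strand, and Rtl1, a retrotransposon-derived gene, lies on the - strand between Meg3 and Rian. Values are whole-gene read counts as deposited, and the annotation behind them is not given.

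The windows from 250 bases before to 50 bases after the RefSeq start are shown for Meg3, Rian and Mirg because the 3 RNAs varied together across lines, as described with their levels (RefSeq, GRCm38.p6, + strand, 5′ to 3′). Capitals mark matches to the cyclic AMP response element TGACGTCA, the TATA box TATAAA and the hexamer TGCCGC bound by ZFP57, searched on both strands.
Meg3, chr12:109540746-109541045: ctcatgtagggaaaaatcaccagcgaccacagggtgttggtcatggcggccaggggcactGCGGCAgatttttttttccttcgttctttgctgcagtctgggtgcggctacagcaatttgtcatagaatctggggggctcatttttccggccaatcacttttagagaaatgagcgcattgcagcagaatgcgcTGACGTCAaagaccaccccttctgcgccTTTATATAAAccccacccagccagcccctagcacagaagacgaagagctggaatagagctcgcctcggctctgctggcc
Rian, chr12:109603695-109603994: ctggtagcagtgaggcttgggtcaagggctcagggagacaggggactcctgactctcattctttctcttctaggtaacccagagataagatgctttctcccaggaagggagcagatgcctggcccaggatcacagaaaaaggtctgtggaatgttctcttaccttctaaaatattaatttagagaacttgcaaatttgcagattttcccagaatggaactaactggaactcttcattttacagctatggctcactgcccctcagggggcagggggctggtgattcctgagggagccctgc
Mirg, chr12:109734731-109735030: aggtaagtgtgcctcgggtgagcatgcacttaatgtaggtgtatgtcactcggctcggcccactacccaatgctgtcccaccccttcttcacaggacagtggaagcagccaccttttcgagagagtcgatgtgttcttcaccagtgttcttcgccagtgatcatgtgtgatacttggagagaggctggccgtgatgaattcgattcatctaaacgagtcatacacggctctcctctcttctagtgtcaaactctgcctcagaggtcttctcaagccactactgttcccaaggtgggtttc
The Meg3 window held the palindromic TGACGTCA 57 bases before the start, which 1.79% of 32851 promoter windows of this length hold. It also held TATAAA on the + strand 25 bases and on the - strand 29 bases before the start, which overlap each other, and the ZFP57 hexamer on the - strand 190 bases before it. TATAAA is held by 13.6% and TGCCGC by 11.6% of all windows. Meg3 had 13 CpG and Mirg 10, against a median of 7 over all windows, and Rian had 0. None of the 3 motifs was in the Rian or the Mirg window, which says only that these letters are not there. The Mirg window follows the RefSeq start, which lies within the GENCODE gene model, and a second RefSeq start of Meg3 is not shown. Dio3 held TATAAA 31 bases before its start and 25 CpG, and Dlk1 held none of the 3 motifs and 9 CpG.

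The reference holds 61 miRNA genes between the ends of the domain, 3 of them listed by their mature sequence only, with 113 mature sequences and 104 different seeds (bases 2 to 8). The pairs below share a seed and are shown because 2 of them join a miRNA within Rian or Mirg to one outside the 6 gene models, while the others lie both within Mirg or both outside the models (RefSeq, GRCm38.p6). Capitals mark the seed.
mmu-miR-370-5p (within Rian): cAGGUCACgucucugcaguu
mmu-miR-1193-3p (outside the gene models): uAGGUCACccguuuuacuauc
mmu-miR-453 (within Mirg): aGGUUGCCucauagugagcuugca
mmu-miR-496a-5p (within Mirg): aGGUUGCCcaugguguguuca
mmu-miR-494-5p (outside the gene models): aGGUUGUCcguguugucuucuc
mmu-miR-410-5p (within Mirg): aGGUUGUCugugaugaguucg
mmu-miR-376c-5p (outside the gene models): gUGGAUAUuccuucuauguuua
mmu-miR-376b-5p (outside the gene models): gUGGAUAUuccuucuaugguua
Seeds carried by more than 1 mature sequence numbered 9. All 61 miRNA genes had rows in the count tables, and 25 had 0 counts in all 34 libraries. The others gave 525 counts summed over the EpiSC libraries and 490 over the DE libraries, with at most 72 for 1 gene in EpiSC (Mir1188) and 123 in DE (Mir673). These libraries were made from polyA or amplified cDNA, so such counts are not a measure of mature miRNAs, and which transcripts they come from was not tested. Of the miRNA genes, 14 lie within Mirg, 3 within Rian, 2 within Meg3, 1 within Rtl1, 6 opposite Rtl1 and 35 in none of the 6 genes.

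EpiSC libraries held 25.6 to 33.8 M (mega) counts. Those of DE held 23.8 to 67.7 M, of which 4 libraries had 58.1 to 67.7 M and the other 13 had 23.8 to 35.1 M. The labels fit the markers: Pou5f1, a pluripotency factor, was at 400 to 743 CPM in EpiSC and 0.831 to 90.4 in DE, and Sox17, an endoderm factor, at 0.473 to 28.9 in EpiSC and 375 to 1366 in DE. The test between cell types called 77.2% of all genes tested. Of the lists compared, all 6 endoderm markers were higher in DE, and of 6 EpiSC markers 4 were lower and 2 higher. Cxcr4 is among the endoderm markers, and DE cells were isolated as CXCR4+, so its rise is not independent of that selection. Of 15 fibroblast markers 13 were lower in DE and 1 higher, and their summed level was 105 to 3753 CPM in EpiSC and 103 to 1470 in DE. Of the 5 neural markers tested 4 were lower, of 6 mesoderm markers 3 were lower and 2 higher, and of 4 extraembryonic endoderm markers tested 2 were higher. No marker of these lists was at 0 in all libraries of a cell type. The kit was a stranded polyA one for every EpiSC library and a low-input one with cDNA amplification for every DE library, so kit and cell type cannot be told apart. In bulk RNA, fewer cells of a type and less RNA per cell cannot be told apart either.

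In EpiSC the maternal RNAs Rian and Meg3 were by far the most abundant members. Per kb of exon, Rian was at 29.8 ± 10.2 CPM per kb (SD, n = 17) and Meg3 at 24.2 ± 10.3, and the ranges of the pair overlapped. Mirg was at 4.48 ± 1.85 CPM per kb, Dlk1 at 0.989 ± 0.493 and Dio3 at 0.370 ± 0.672. The lowest Meg3 library (8.73 CPM per kb) was above the highest Mirg library (7.87), and the lowest Mirg library (2.05) above the highest Dlk1 library (1.98), whereas Dlk1 and Dio3 overlapped. In DE the order was Meg3 at 6.93 ± 6.07 CPM per kb (SD, n = 17), Rian at 3.27 ± 2.29, Mirg at 1.08 ± 0.736, Dio3 at 0.526 ± 0.577 and Dlk1 at 0.361 ± 0.201, and every neighbouring pair overlapped. These values divide by all GENCODE M21 exon bases of a gene, and the annotation used for counting is not given. The order of close members depends on these lengths: the mean plain CPM in DE was 2.04 for Dlk1 and 1.07 for Dio3. Meg3, Rian, Mirg and Dlk1 had counts in all 34 libraries. The lowest count of Meg3 was 560, that of Rian 291, of Mirg 52 and of Dlk1 17, so no library was without counts of them, though those of EpiSC include feeder RNA where present.

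The 3 maternal RNAs and Dlk1 were lower in DE than in EpiSC, and Dio3 was not called. Rian had the largest difference: it was at 304 CPM in the lowest, 525 in the median and 885 in the highest EpiSC library, and at 11.9, 52.4 and 184 CPM in DE, so the cell types did not overlap. The fitted DE minus EpiSC difference was -3.27 ± 0.26 on the log2 scale (SE; adjusted p = 1.21e-12, edgeR), and Rian was lower in 16 of 16 lines. Meg3 was at 158, 375 and 857 CPM in EpiSC and at 23.0, 92.9 and 447 CPM in DE, with a log2 fold of -2.03 ± 0.27 (adjusted p = 1.03e-07, edgeR). Meg3 ranges overlapped, and it was lower in 15 of 16 lines. Mirg was at 14.9, 28.7 and 57.4 CPM in EpiSC and 2.02, 6.21 and 20.8 CPM in DE, a log2 fold of -2.14 ± 0.23 (adjusted p = 6.21e-10, edgeR), and was lower in 16 of 16 lines with ranges that overlapped. Such calls were common: 77.2% of 20907 genes tested were called in this comparison, 7805 higher and 8343 lower, so 4 of 5 members called is near the background share.

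Of the paternal genes, Dlk1 was at 0.647, 5.79 and 11.2 CPM in EpiSC and 0.639, 1.78 and 4.26 CPM in DE. The log2 fold of Dlk1 was -1.41 ± 0.23 (adjusted p = 1.82e-06, edgeR), with less in DE in 15 of 16 lines. With the mean fibroblast marker level as a covariate the Dlk1 fold was -0.80 and no longer called (adjusted p = 0.0963), whereas Meg3, Rian and Mirg stayed called. Since 13 of 15 fibroblast markers were themselves lower in DE, the covariate cannot cleanly separate fibroblast level from cell type. Dio3 was at 0.0749, 0.352 and 5.88 CPM in EpiSC and 0, 0.582 and 3.63 CPM in DE, with a log2 fold of 0.89 ± 0.60 (adjusted p = 0.172, edgeR). Dio3 was higher in DE in 9 lines and lower in 7, and its counts were as few as 2 in an EpiSC library and 0 in the DE library of C57BL/6J line 5-1.

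**Figure D2:**
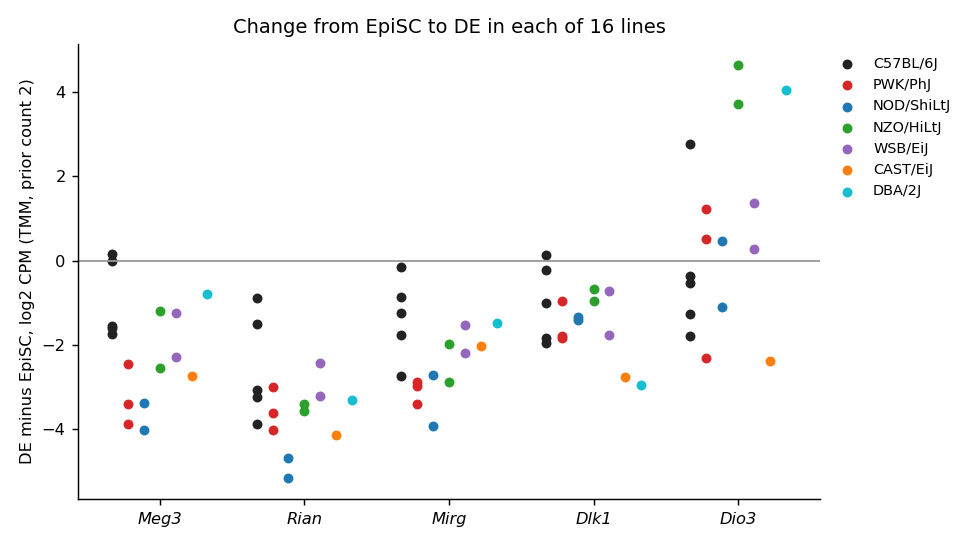
Each point is 1 line, coloured by strain, and the vertical axis gives its DE minus its EpiSC level in log2 CPM (TMM-scaled, prior count 2) for each member. Rian and Mirg lie below 0 in all 16 lines, Meg3 and Dlk1 in 15, and Dio3 spreads from -2.38 to 4.65.

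The size of the change differed between lines. For Rian it ran from -5.16 in NOD/ShiLtJ line AC576 to -0.89 in C57BL/6J line 5-1, with a median of -3.35 (log2 CPM, DE minus EpiSC). For Meg3 it ran from -4.02 in AC576 to 0.15 in C57BL/6J line 4, with a median of -2.02. C57BL/6J lines 4 and 5-1 had about equal Meg3 levels in both cell types, at 158 and 174 CPM in line 4 and at 284 and 285 CPM in line 5-1 for EpiSC and DE in that order. The other 3 C57BL/6J lines had changes of -1.55, -1.61 and -1.75, and NOD/ShiLtJ lines AC576 and AC595 of -4.02 and -3.38. DE libraries of lines 5-1 and 4 were the deepest of all, at 67.7 and 61.0 M counts, and with PWK/PhJ AC705 (58.4 M) and WSB/EiJ AC627 (58.1 M) they form the 4 deepest. In each of the 3 strains with both kinds of DE library, every one of these 4 had more Meg3 (in CPM) than every other line of its strain. Their titles carry the consecutive letters L, M, N and O. No label says whether they were sequenced apart from the rest, and their part in the Meg3 levels was not tested beyond leaving them out. Without them the folds were -2.35 for Meg3, -3.70 for Rian, -2.30 for Mirg and -1.58 for Dlk1, all called, an alternative chosen after seeing the data.

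Other genes of imprinting and of the region were given the same test, which called 77.2% of 20907 genes. Of the 20 regulators of imprints, 19 were tested and 16 called, 15 lower and 1 higher in DE, with a median log2 fold of -0.90 against -0.06 over all genes tested. Aff3, known to bind the control region of this domain, had a log2 fold of -4.90 ± 0.22, the 5-methylcytosine oxidase Tet1 -2.75 ± 0.13, the DNA methyltransferase Dnmt3a -2.32 ± 0.17 and the zinc finger protein Zfp445, which binds imprinted control regions, -1.91 ± 0.12 (each called, edgeR). Among 26 tested neighbours on chromosome 12, 17 were called, 7 higher and 10 lower, with a median of 0.06. Ccnk, which encodes cyclin K, had -4.53 ± 0.14, Ccdc85c -3.42 ± 0.36, the dynein heavy chain Dync1h1 -3.10 ± 0.07 and the microtubule-associated Eml1 2.45 ± 0.17. Of 26 imprinted genes on other chromosomes, 21 were called, 8 higher and 13 lower, with a median of -0.59. Magel2 had a log2 fold of -4.57 ± 0.30, the noncoding RNA H19 -4.21 ± 0.39, the noncoding RNA Kcnq1ot1 3.34 ± 0.30 and Peg10 -3.31 ± 0.30. The genes named had the largest folds among those called in their list. The members were not the only imprinted or regional genes with folds of this size.

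The balance between the maternal RNAs shifted with cell type. The ratio of Rian to Meg3 counts ran from 0.953 to 1.92 in EpiSC (median 1.28) and from 0.204 to 0.925 in DE (median 0.530), with no overlap, and was lower in DE in all 16 lines. DBA/2J line 55 had the lowest ratio in DE, with 447 CPM of Meg3 and 91.0 CPM of Rian. The ratio of Mirg to Meg3 had a median of 0.0749 in EpiSC and 0.0650 in DE, and was lower in 9 lines and higher in 7. The ratio of Mirg to Rian was higher in DE in all 16 lines, at 0.0478 to 0.0723 in EpiSC and 0.0716 to 0.251 in DE. Among strains the ratios were compared by a permutation test of F (100000 resamples, 4 tests, added after the data were seen). The Rian to Meg3 ratio in EpiSC was 1.54 ± 0.296 (SD, n = 5) in C57BL/6J and 1.04 ± 0.0729 (SD, n = 3) in PWK/PhJ. Its permutation p over strains was 0.0217 (adjusted p = 0.0868). In DE adjusted permutation p was 0.274, and for Mirg to Meg3 it was 0.604 in EpiSC and 0.423 in DE. The library kit differs between the cell types, and its part in the ratios cannot be told apart from that of cell type.

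**Figure D3:**
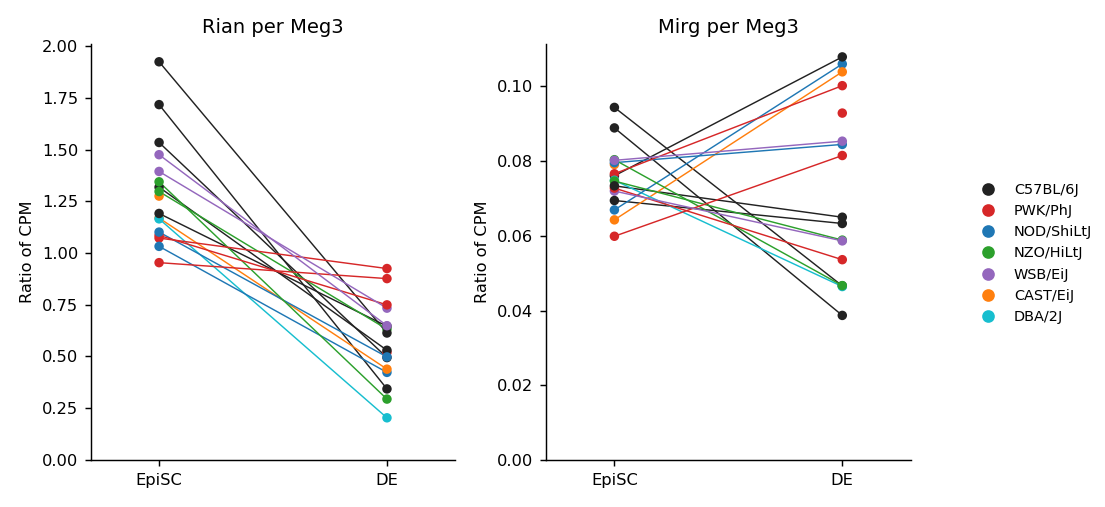
The panels give the ratio of CPM of Rian to Meg3 and of Mirg to Meg3 in each library, with lines joining the EpiSC and DE library of a cell line and colours for strains. Rian to Meg3 lies at 0.953 or above in every EpiSC library and at 0.925 or below in every DE library, while Mirg to Meg3 goes down in 9 lines and up in 7.

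Across EpiSC lines the maternal RNAs differed between strains, led by high levels in NOD/ShiLtJ. Meg3 was at 158, 231, 284, 312 and 435 CPM in the 5 C57BL/6J lines and at 347, 348 and 375 CPM in the 3 PWK/PhJ lines. It was at 702 and 857 CPM in NOD/ShiLtJ, 498 and 516 in NZO/HiLtJ, 350 and 353 in WSB/EiJ, 449 and 475 in CAST/EiJ and 758 in DBA/2J. NOD/ShiLtJ was thus above every other strain with replicates, and DBA/2J lay between its lines. In CPM, NZO/HiLtJ and CAST/EiJ were above all C57BL/6J lines without overlap, whereas PWK/PhJ, WSB/EiJ and C57BL/6J overlapped. After TMM scaling CAST/EiJ line WM078 (log2 CPM 8.816) was just below C57BL/6J line 2 (8.828), so CAST/EiJ and C57BL/6J overlapped there. The F test over the 5 strains with replicates in both cell types gave adjusted p = 0.00341 for Meg3, 0.00295 for Rian, 0.00332 for Mirg and 0.0434 for Dlk1 (edgeR), and 0.327 for Dio3. This test called 40% of 17868 genes in EpiSC. Dlk1 lost its call when any of 12 single EpiSC libraries was left out, with adjusted p of 0.0523 to 0.0800.

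NOD/ShiLtJ exceeded C57BL/6J in 4 members. The log2 differences were 1.48 ± 0.24 for Meg3 (adjusted p = 0.00225, edgeR), 1.00 ± 0.20 for Rian (0.00699), 1.36 ± 0.24 for Mirg (0.00295) and 1.46 ± 0.42 for Dlk1 (0.0353). Rian was at 773 and 885 CPM in NOD/ShiLtJ against 304 to 573 in C57BL/6J, and Mirg at 55.9 and 57.4 against 14.9 to 33.1, without overlap. Of all genes, 12.9% were called in this contrast, 1069 higher and 1240 lower. These calls use a spread shared by all strains: fitted on C57BL/6J and NOD/ShiLtJ alone, adjusted p was 0.0654, 0.0991, 0.0648 and 0.188 in that order. The Dlk1 call was also lost without any of 8 single EpiSC libraries, with adjusted p of 0.0501 to 0.159. NZO/HiLtJ had no member called among 5.52% of genes, with differences of 0.85 ± 0.25 for Meg3 (adjusted p = 0.0713), 0.68 ± 0.20 for Rian (0.0737) and 0.82 ± 0.24 for Mirg (0.0723), all 3 called by DESeq2 (adjusted p 0.0129, 0.0167 and 0.0191) and without C57BL/6J line 2. Its Dlk1 difference was 1.33 ± 0.42 (adjusted p = 0.0862), called by DESeq2 (0.0275) and without C57BL/6J line 1 (1.08, 0.0344). CAST/EiJ had none of the maternal RNAs called, with differences of 0.64 ± 0.25 for Meg3 (adjusted p = 0.0709), 0.36 ± 0.21 for Rian (0.205) and 0.50 ± 0.25 for Mirg (0.144). Meg3 was called there by DESeq2 (0.0368), and all 3 without C57BL/6J line 2. WSB/EiJ had none called among 7.41% of genes, with differences of 0.28 ± 0.26 for Meg3 and 0.23 ± 0.21 for Rian.

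The paternal genes showed another order in EpiSC. Dlk1 was at 0.647, 2.25, 2.64, 3.45 and 3.47 CPM in C57BL/6J, the strain with the lowest mean, and at 9.74 and 11.2 CPM in CAST/EiJ, the highest. In between, PWK/PhJ had 4.36, 6.95 and 7.58 CPM, NOD/ShiLtJ 5.79 and 7.72, NZO/HiLtJ 5.83 and 6.63, WSB/EiJ 3.56 and 5.52, and DBA/2J 7.82. Every line of another strain was therefore above every C57BL/6J line. CAST/EiJ exceeded C57BL/6J by 2.00 ± 0.41 in Dlk1 (adjusted p = 0.00232, edgeR) in a contrast that called 31.6% of genes. PWK/PhJ exceeded C57BL/6J by 1.27 ± 0.38 in Dlk1 (adjusted p = 0.0214, edgeR), where 29.8% of genes were called. The PWK/PhJ call on Dlk1 was lost without line AC695 (1.19, adjusted p = 0.0758) or line AC705 (1.12, adjusted p = 0.0911), and when fitted on the 2 strains alone (adjusted p = 0.0667).

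Dlk1 moved with fibroblast markers in EpiSC. Over the 17 EpiSC libraries, which share feeders and depth, the Pearson r of Dlk1 with the summed fibroblast marker level (log scale) was 0.73, against 0.27 for Meg3, -0.07 for Rian and 0.10 for Mirg. C57BL/6J line 1, with 0.647 CPM of Dlk1, had the lowest fibroblast sum at 105 CPM, but C57BL/6J line 5-1, with 2.25 CPM, had 2886. With the fibroblast level as a covariate the Dlk1 difference was 1.56 for CAST/EiJ (adjusted p = 0.00540), 1.12 for NOD/ShiLtJ (0.0482), 1.21 for NZO/HiLtJ (0.0421, a call gained) and 0.69 for PWK/PhJ (0.202). Rian in NZO/HiLtJ was also called there (0.73, adjusted p = 0.0482). Meg3, Rian and Mirg in NOD/ShiLtJ stayed called there, with differences of 1.45, 1.11 and 1.43. Fibroblast sums in EpiSC were 2459 to 3268 CPM in PWK/PhJ, and at most 1206 in the C57BL/6J lines other than 5-1. The covariate therefore cannot cleanly separate fibroblast level from strain in the PWK/PhJ contrast.

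Dio3 in EpiSC was low in every strain except CAST/EiJ. It was at 1.302 and 5.88 CPM in the 2 CAST/EiJ lines, at 0.145 to 0.758 in C57BL/6J, 0.352 to 0.494 in PWK/PhJ, 0.325 and 1.06 in NOD/ShiLtJ, 0.271 and 0.535 in WSB/EiJ, 0.0749 and 0.194 in NZO/HiLtJ and 0.107 in DBA/2J. CAST/EiJ exceeded C57BL/6J by 3.28 ± 0.62 (adjusted p = 0.00127, edgeR). Markers of other states moved with CAST/EiJ in EpiSC, in a contrast that called 31.6% of genes. Against C57BL/6J, 5 of 6 endoderm markers were called higher (median log2 difference 1.98), and of 6 EpiSC markers 2 were higher and 2 lower. Of 5 neural markers tested 3 were lower, of 4 mesoderm markers tested 2 were lower, and of 15 fibroblast markers 2 were higher and 1 lower. Sox17 was at 26.9 and 28.9 CPM in CAST/EiJ and at most 10.6 in C57BL/6J, and Pou5f1 at 400 and 442 against 478 to 659 CPM. Their part in the Dlk1 and Dio3 differences was not tested. The Dio3 call rested on line WM080 with 170 counts, since without it the difference was 1.84 (adjusted p = 0.103). No other strain had Dio3 called in EpiSC.

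**Figure D4:**
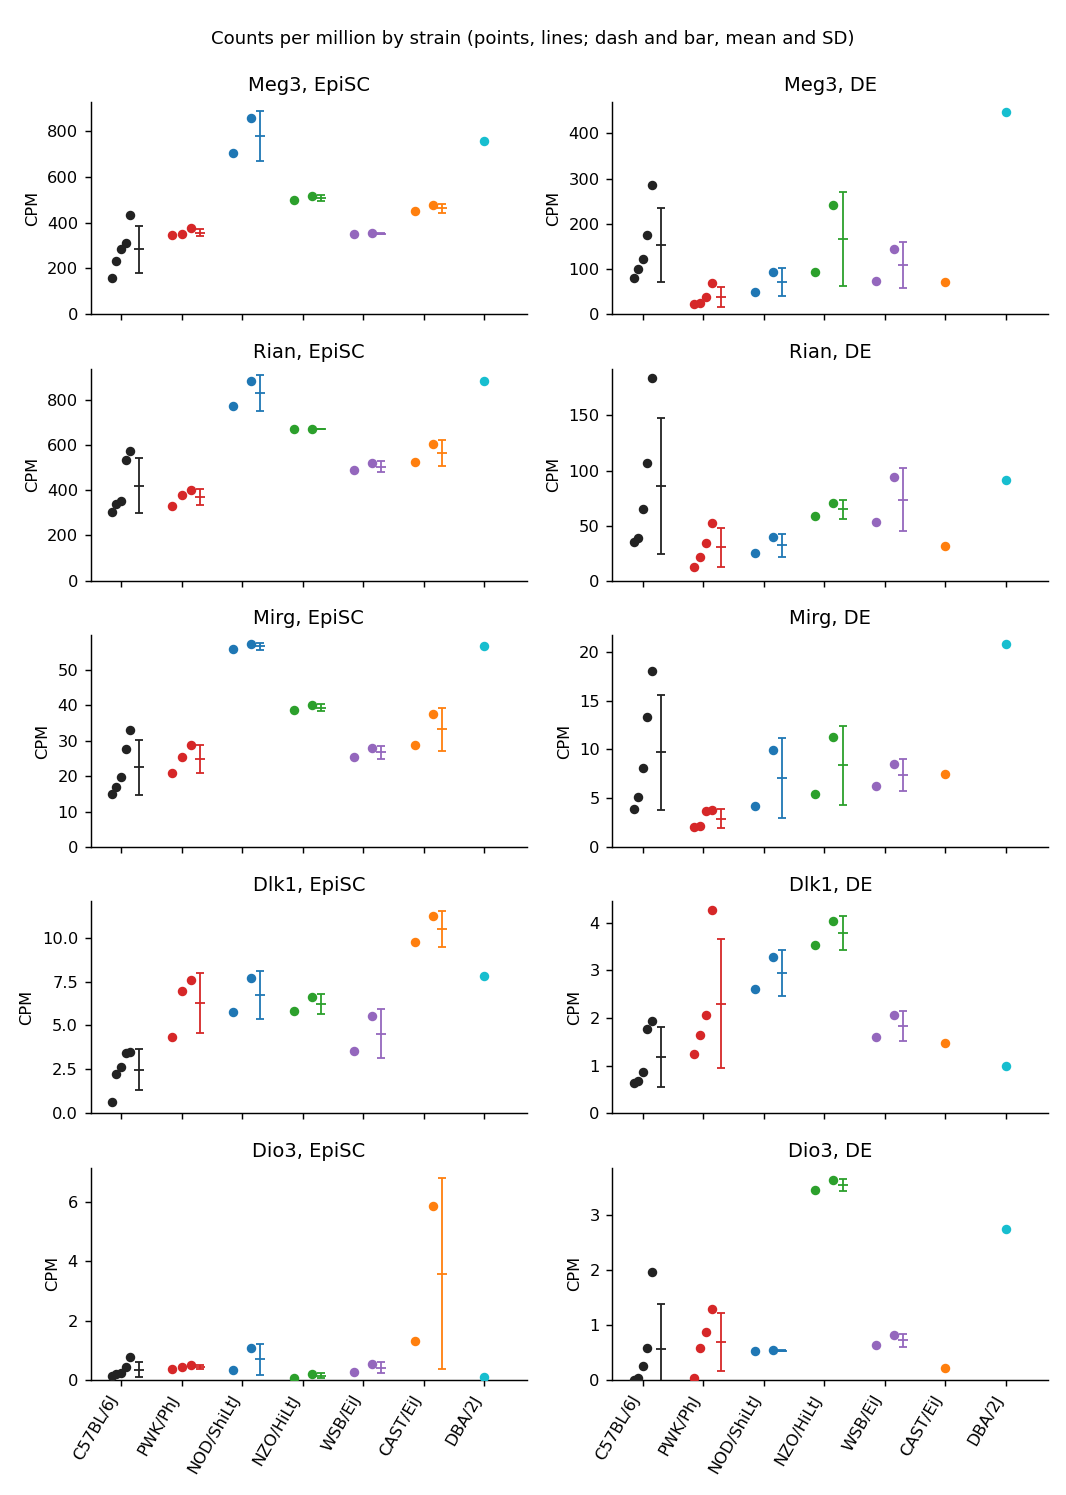
Points are lines, dashes and bars the mean and SD of strains with 2 or more lines, and the vertical axes CPM from 0 (bars that pass 0 are cut there), for each member in EpiSC and DE. NOD/ShiLtJ and DBA/2J are high for Meg3, Rian and Mirg in EpiSC, CAST/EiJ for Dlk1 and Dio3, and in DE PWK/PhJ is low for Meg3 and Mirg.

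In DE PWK/PhJ had the lowest strain means of the maternal RNAs, and NOD/ShiLtJ no longer led. For Rian the margin was small: the mean was 30.1 CPM in PWK/PhJ and 32.2 in NOD/ShiLtJ, and the CAST/EiJ library had 31.4. Meg3 was at 23.0, 24.8, 37.1 and 69.9 CPM in PWK/PhJ and at 79.0, 101, 123, 174 and 285 CPM in C57BL/6J, without overlap. It was at 49.7 and 93.7 CPM in NOD/ShiLtJ, 92.9 and 241 in NZO/HiLtJ, 72.7 and 145 in WSB/EiJ, 71.6 in CAST/EiJ and 447 in DBA/2J. All neighbours in the order of strain means overlapped, from NZO/HiLtJ through C57BL/6J, WSB/EiJ and NOD/ShiLtJ to PWK/PhJ, while the single DBA/2J library was above all others. The strain F test in DE called Meg3 (adjusted p = 0.0180, edgeR) and not Rian (0.0985), Mirg (0.0742), Dlk1 (0.184) or Dio3 (0.369), among 22.3% of 19290 genes called. Meg3 lost this call with the fibroblast level as a covariate (adjusted p = 0.150) and without PWK/PhJ line AC698 (adjusted p = 0.0595).

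PWK/PhJ was below C57BL/6J in DE in all 3 maternal RNAs. The log2 differences were -2.07 ± 0.44 for Meg3 (adjusted p = 0.00408, edgeR), -1.60 ± 0.48 for Rian (0.0339) and -1.83 ± 0.46 for Mirg (0.0119), where 17.1% of genes were called. In EpiSC the same contrast gave 0.26 ± 0.22 for Meg3 (adjusted p = 0.401), -0.25 ± 0.18 for Rian (0.320) and 0.08 ± 0.22 for Mirg (0.796), none of them called. Mirg was at 2.02, 2.13, 3.72 and 3.75 CPM in PWK/PhJ and at 3.91, 5.14, 8.13, 13.3 and 18.03 CPM in C57BL/6J, and Rian at 11.9, 21.7, 34.3 and 52.4 against 34.6, 39.1, 65.1, 107 and 184 CPM, so Rian overlapped and Mirg did not. Without the 4 deepest DE libraries Meg3 kept its call (-1.98, adjusted p = 0.00899), and Rian (-1.18, 0.0933) and Mirg (-1.66, 0.0979) lost theirs. Rian also lost its call without any of 5 single libraries and when fitted on the 2 strains alone. Fibroblast marker sums in DE were 110 to 287 CPM in C57BL/6J, 337 to 603 in PWK/PhJ and 1342 to 1470 in NOD/ShiLtJ, and with that level as a covariate Meg3 (-1.75, adjusted p = 0.0715) and Rian (-1.51, 0.169) were not called while Mirg was (-1.92, 0.0449). Of the marker lists in this contrast, 2 of 14 fibroblast markers were called higher, 1 of 6 EpiSC markers higher and 2 lower, 1 of 6 mesoderm and 1 of 4 neural markers higher, and 1 of 4 extraembryonic endoderm markers lower. Of 6 endoderm markers 0 passed edgeR's test, and 1 had an unadjusted p under 0.05. The fibroblast sums of C57BL/6J and PWK/PhJ did not overlap, so the covariate cannot cleanly separate fibroblast level from strain. The part of the other markers was not tested. Over the 17 DE libraries the r with the fibroblast sum, as a description, was -0.66 for Meg3, -0.64 for Rian, -0.44 for Mirg and 0.38 for Dlk1.

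No member was called against C57BL/6J in DE in the other strains. In NOD/ShiLtJ the differences were -1.18 ± 0.55 for Meg3 (adjusted p = 0.199) and -1.50 ± 0.63 for Rian (0.152), where 11.4% of genes were called. The NOD/ShiLtJ DE libraries also had the most Pou5f1 of DE, at 26.6 and 90.4 CPM. Against C57BL/6J, 5 of 6 endoderm markers were called lower there (median log2 difference -1.25), and 11 of 14 fibroblast markers (3.67), 3 of 6 mesoderm and 2 of 4 neural markers higher. Of 6 EpiSC markers 3 were lower and 1 higher. The fibroblast sums of NOD/ShiLtJ and C57BL/6J did not overlap in DE, so the fibroblast covariate cannot cleanly separate that level from strain. The part of the other markers in the NOD/ShiLtJ levels of the members was not tested. In NZO/HiLtJ 1.41% of genes were called, and Dio3, at 3.46 and 3.63 CPM in its 2 lines against 0 to 1.96 in C57BL/6J, differed by 2.62 ± 1.20 (adjusted p = 0.419, edgeR). Both NZO/HiLtJ lines were above every line of the other strains in Dio3. Dlk1 had its highest strain mean there, at 3.54 and 4.04 CPM, below the 4.26 CPM of PWK/PhJ line AC705, a difference from C57BL/6J of 1.64 ± 0.53 (adjusted p = 0.184, edgeR). In WSB/EiJ 2.28% of genes were called, with -0.49 ± 0.52 for Meg3. DBA/2J line 55, with 1 library and no test, had 2.75 CPM of Dio3 in DE and 0.107 in EpiSC.

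The strain effect on Meg3 differed between EpiSC and DE. The strain by cell type F test over 5 strains gave adjusted p = 0.0110 for Meg3 (edgeR), where 10.7% of genes were called, and 0.0895 for Rian, 0.0614 for Mirg, 0.967 for Dlk1 and 0.362 for Dio3. Meg3 changed from EpiSC to DE by -0.92 ± 0.33 in C57BL/6J, -1.72 ± 0.53 in NZO/HiLtJ and -1.69 ± 0.53 in WSB/EiJ (log2, SE). The change was -3.23 ± 0.41 in PWK/PhJ and -3.58 ± 0.58 in NOD/ShiLtJ. Rian had the largest fitted change in NOD/ShiLtJ at -4.82 ± 0.66 and the smallest in C57BL/6J at -2.32 ± 0.37. The C57BL/6J changes include lines 5-1 and 4, which had the deepest DE libraries. Per line, Rian changed by -0.89 in 5-1 and -1.50 in 4, against -3.06, -3.24 and -3.88 in lines 2, 44 and 1. For Meg3 these changes were -0.008 and 0.15, against -1.75, -1.61 and -1.55. The part of depth in the C57BL/6J changes was not tested beyond leaving those libraries out. Dio3 in NZO/HiLtJ changed by 4.56 ± 1.499 on 8 counts in EpiSC and 217 in DE over its 2 lines. The Meg3 call remained without the 4 deepest DE libraries (adjusted p = 0.00382) and with the fibroblast covariate (0.0194). DESeq2 called Rian (0.0152) and Mirg (0.00992) too. Library kit and cell type changed together, so a strain effect that depends on the kit cannot be told apart here.

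Lists gave the background of these strain tests. In EpiSC the strain F test called 9 of 26 tested neighbours on chromosome 12, 5 of 19 regulators and 12 of 26 imprinted genes elsewhere, against 40% of all genes tested. In DE it called 3, 4 and 6 of them, against 22.3% of all genes. The strain by cell type test called 4, 4 and 2, against 10.7%.

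Meg3, Rian and Mirg varied together across lines, and no pair with Dlk1 or Dio3 passed the test on r. In the 17 EpiSC libraries Pearson's r was 0.91 between Meg3 and Rian, 0.97 between Meg3 and Mirg and 0.96 between Rian and Mirg, with Spearman's rho of 0.91, 0.96 and 0.95 (each permutation p = 1e-05, the smallest 100000 resamples give; adjusted p = 5e-05 over 20 pairs for r). In DE r was 0.88, 0.92 and 0.82 and rho 0.89, 0.87 and 0.77, with adjusted permutation p of 8e-05, 5e-05 and 0.000233 for r. Without the 2 libraries farthest from the median of the gene on the x axis, r was 0.89, 0.97 and 0.94 in EpiSC and 0.87, 0.87 and 0.73 in DE. Within strains, as deviations from the strain means, r was 0.84, 0.87 and 0.94 over 16 EpiSC libraries, with adjusted permutation p of 0.0571, 0.0242 and 0.0196, and 0.88, 0.81 and 0.80 over 15 DE libraries, with 0.004, 0.0196 and 0.0242. The Meg3 and Rian pair in EpiSC thus missed the threshold within strains.

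Pairs with a paternal gene were weaker. Meg3 and Dlk1 had r = 0.55 in EpiSC (permutation p = 0.0248, adjusted p = 0.0709), rho = 0.72 (adjusted permutation p = 0.00514), and r = -0.05 within strains, so the pooled relation did not hold within strains. Mirg and Dlk1 in EpiSC likewise passed on rho (0.62, adjusted permutation p = 0.0239) and not on r (0.47, 0.140), with r = -0.12 within strains. Without C57BL/6J line 1, r of Meg3 and Dlk1 was 0.65 (adjusted permutation p = 0.0167) and that of Mirg and Dlk1 0.64 (0.0208). In DE, Meg3 and Dlk1 had r = -0.12 (adjusted permutation p = 0.956). Dlk1 and Dio3 had r = 0.23 in EpiSC and 0.37 in DE (adjusted permutation p = 0.626 and 0.328).

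**Figure D5:**
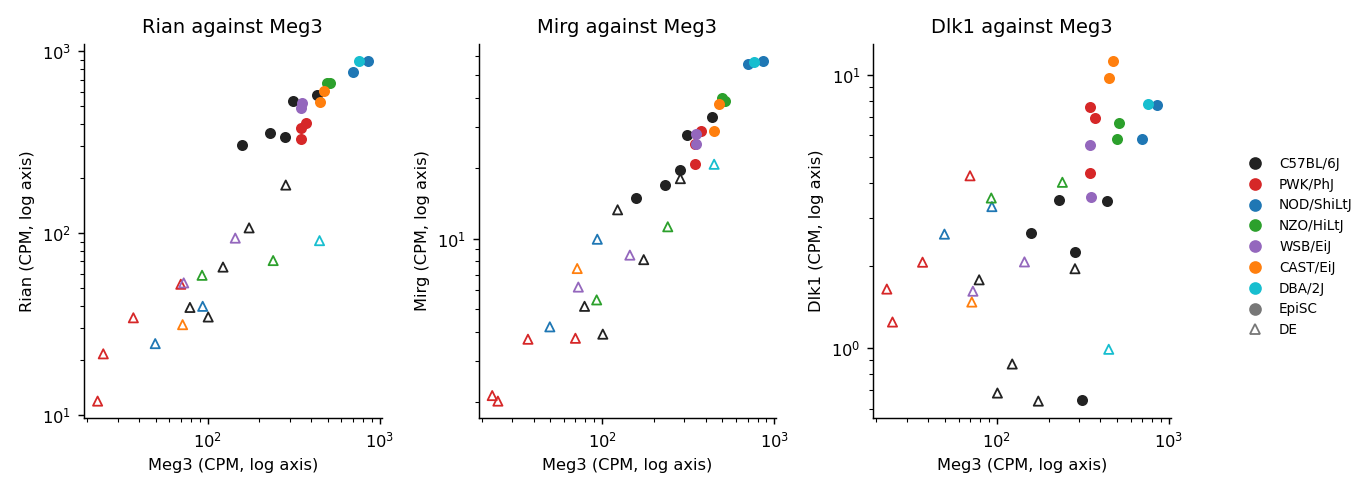
Each panel sets a member against Meg3 in CPM on log axes, with filled circles for EpiSC and open triangles for DE libraries, coloured by strain. Rian and Mirg follow Meg3 in both cell types, Rian on a lower track in DE, and Dlk1 is scattered, with C57BL/6J line 1 at 0.647 CPM.

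A line's level in EpiSC did not carry over to its DE at a level the test could show. Over 16 lines r was 0.07 for Meg3, -0.07 for Rian, 0.28 for Mirg, 0.57 for Dlk1 and -0.26 for Dio3, and rho 0.02, -0.04, 0.34, 0.44 and -0.31. Adjusted permutation p over the 5 members was 0.796, 0.796, 0.543, 0.0896 and 0.543 for r and at least 0.401 for rho. Leaving out the 2 farthest lines gave r of 0.27, -0.15, 0.25, 0.50 and -0.23, and within strains, over 14 lines, r was 0.02, -0.26, 0.23, 0.46 and 0.29. Dlk1 passed the threshold without DBA/2J line 55 (0.67, adjusted permutation p = 0.0216) or CAST/EiJ line WM078 (0.63, 0.0417). Without the lines of the 4 deepest DE libraries, chosen after seeing the data, r was 0.39 for Meg3, 0.45 for Rian and 0.55 for Mirg. In that setting r was 0.57 for Dlk1 and -0.49 for Dio3 (adjusted permutation p from 0.162 to 0.211 over the 5 members).

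Genes most like Meg3 were ranked by Pearson r of log2 CPM over the 17 libraries of a cell type, given as a description since libraries share strain and depth. In EpiSC, among 12068 genes, these were Mirg (0.97), Rian (0.91), a row named Rlt1 (0.91), Smek1 (0.89) and Hsd17b7 (0.88), the last an enzyme of cholesterol synthesis. No reference used here pairs the symbol Rlt1 with a gene, and it was not taken as Rtl1. Its level was 1.41 to 6.04 CPM in EpiSC and 0.123 to 3.65 in DE, where its r with Meg3 was 0.85. In DE, among 11591 genes, they were RP23-204I16.3 (0.93), a clone-based name with no position here, Mirg (0.92), Suz12 (0.88), Rian (0.88) and Notch3 (0.88). Suz12 is a subunit of the Polycomb complex that methylates histone H3, and Notch3 a Notch receptor. Dlk1 ranked 859 in likeness to Meg3 in EpiSC.

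Among the genes most like Dlk1 in EpiSC were the imprinted gene Ndn (0.90), Penk (0.88), which encodes opioid peptide precursors, the surface protein Cd34 (0.86) and the matrix protein Tgfbi (0.85). Meg3 ranked 1009, Mirg 1510 and Rian 2347 in likeness to Dlk1 there. In DE Dlk1 was below the level required for this ranking, a mean log2 CPM of 1.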

How the data were processed

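The authors deposited raw whole-number read counts per gene, 1 table for each cell type. The submitters' processing notes name STAR 2.4 as aligner, HTSeq 0.6.1 as counter, the mm10 build, and DESeq2 without a version. Which annotation, strand option and multi-mapping rule applied is not given in the sources used here. Reads of overlapping genes (hosts and their hairpins, Meg3 and its neighbours on either strand) may be split or mixed. Per the labels' protocols, a TruSeq Stranded mRNA kit served for EpiSC, and DE libraries came from 2 ng of RNA with a SMART-Seq v4 kit (12 cycles of cDNA amplification), and reads were pairs of 100 nt.

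CPM are counts scaled to library totals. Tests used edgeR 4.0.16 in R 4.3.3 (TMM scaling, robust quasi-likelihood F test, Benjamini-Hochberg adjustment over all genes tested, threshold 0.05) on genes reaching 10 counts in 3 or more libraries. The DE against EpiSC test, the strain F tests and the PWK/PhJ contrasts were also run on simulated data, whose outcome is not given here. The strain by cell type test was not run on simulated data. DE against EpiSC used all 34 libraries with strain as a term. Strain tests were fitted within a cell type, so that strains share 1 estimate of the spread, and the strain by cell type test used a mean per group. Correlations used log2 CPM (TMM, prior count 2) of members with a median count of at least 10, with permutation tests (100000 resamples, SciPy 1.17.1). Lines with both libraries pair them by origin. Their deviations from group means had r from -0.004 to 0.173 within a line over 14 lines (median 0.037, over 0.1 in 6). Closest replicates of a strain differed beyond sampling noise (chi-square per degree of freedom 6.02 in EpiSC and 28.4 in DE). Lines are separate cultures, but p-values measure only the spread between these libraries. The labels name no molecular identifiers, so counts are not independent molecules.

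The members and gene lists were chosen with earlier results of these data known. Genes named are the members, at most 4 genes of each list with the largest absolute log2 fold among those called, and the 5 genes most like Meg3 and Dlk1 (mean log2 CPM of at least 1, names of the form Gm and digits passed over). Of the last, 1 gene is not reported here. Coordinates are from GENCODE M21 and sequences from RefSeq (GRCm38.p6). Alternatives tried were RLE size factors, no filter, DESeq2 1.42.0, a fibroblast marker covariate, the cell line as a block, no strain term, 2-strain fits, prior count 0.5, plain CPM, leaving out each library and, chosen after seeing the data, leaving out the 4 deepest DE libraries.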

Additional observations from a re-analysis of the deposited data

Results flagged for a closer look

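Dlk1 in the EpiSC library of C57BL/6J line 1 was at 0.647 CPM on 17 counts, below the 2.25 to 3.47 CPM of the other 4 C57BL/6J lines. On the log2 CPM scale (TMM, prior count 2) it was at -0.48 and the others at 1.28 to 1.87, so that the gap to the next line was 0.747 of the range of the 5 lines, past Dixon's 95% critical value. In CPM the gap is a smaller share of the range and does not pass that value. Chance flags about 1 in 20 such groups, and 15 were examined. That library also had the lowest fibroblast marker sum (105 CPM) of the 17 EpiSC libraries, and the part of this in the Dlk1 level was not tested.

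The strain effect on Meg3 differed between EpiSC and DE by the test of the difference itself (strain by cell type F test, edgeR, adjusted p = 0.0110). Meg3 went from 284 ± 103 CPM (SD, n = 5) in EpiSC to 152 ± 82.0 (SD, n = 5) in DE in C57BL/6J and from 357 ± 15.5 (SD, n = 3) to 38.7 ± 21.8 (SD, n = 4) in PWK/PhJ. The 2 DE libraries of C57BL/6J with the most Meg3 were also the deepest. The library kit also differed between the cell types, and its part in this difference cannot be told apart.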

How the results depend on the processing

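Of the counts of members or pairs called, under alternatives other than leaving out 1 library, 31 stayed within 1.5 times the main count and 10 did not, and no called value changed sign. DE against EpiSC kept 4 members called under RLE, DESeq2, no filter and no strain term, and 3 with the fibroblast covariate. With the cell line as a block, on the 16 paired lines, 4 members were called between cell types and 1 by the strain by cell type test (Meg3, adjusted p = 0.0403, edgeR), so the block changed no call.

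Without a filter on low counts the strain by cell type test called 4 members and the strain F test in DE 4, and contrasts in DE gave 6 calls. DESeq2 called 3 in the strain by cell type test, 3 in the strain F test in DE and 12 in EpiSC contrasts (7 in the main analysis). With the fibroblast covariate the strain F test in DE called 0 members (1 in the main analysis; Meg3 adjusted p = 0.150) and DE contrasts 1 (3 in the main analysis). Fitting each EpiSC contrast on its 2 strains alone left 2 calls. Without the 4 deepest DE libraries, chosen after seeing the data, DE contrasts gave 1 call. The cause of these differences was not tested. Leaving out 1 library at a time gave 1 to 3 calls in the strain by cell type test, 0 to 2 in the strain F test in DE, 3 to 4 in that of EpiSC, 5 to 13 in EpiSC contrasts (13 without C57BL/6J line 2), 2 to 3 in DE contrasts, 6 to 8 among member pairs, and 0 to 1 in line correlations. Where a strain had 2 lines, the lone line left is assumed to vary like the others. Dio3 gave no value for NZO/HiLtJ in EpiSC on 2 strains alone, where it did not reach the filter. Dlk1 and Dio3 are limited by few counts, with medians of 47 and 23 counts in DE and of 163 and 11 in EpiSC.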
